A study of Chamaelirium luteum with 2 samples.

Results

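The peak-poor windows of the Cha. luteum arms are stretches of 1 Mb in which few regions of open chromatin were called in leaf nuclei. They were chosen by their number of peak summits in both libraries: scaffolds 1 to 22 without scaffold 9 were cut from position 1 into full windows of 1 Mb, windows touching 1 of the 8 listed centromere intervals were dropped, and a window was kept with 35 or fewer summits as the mean of both libraries. Of 572 arm windows on 20 scaffolds, 33 were peak-poor (5.77%), on 14 scaffolds. They held 904 of the 39233 peaks of replicate 1 (2.30%) and 949 of the 41385 peaks of replicate 2 (2.29%).

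The study profiled Chamaelirium luteum, a plant whose chromosomes carry very large centromeres built of satellite DNA. Both ATAC-seq libraries came from fresh leaves, each from about 75000 nuclei, and form 1 group of 2 replicates whose labels list the tagmentation enzyme as their only treatment. The study states that sequenced tissue was taken at random from different individuals in the same greenhouse, but not whether these libraries came from separate plants, so the spread between them may be partly technical. Both labels carry the same code, A112, whereas the peak names of replicate 2 carry A114; what the codes stand for is not stated, and the labels were followed. The leaf label was not checked against genes, since no gene annotation was used. At a summit, a median of 32 fragments was stacked in replicate 1 and 33 in replicate 2, and the fewest were 11 in both, so weaker sites are not listed.

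In ATAC-seq the transposase Tn5 cuts and tags DNA where no nucleosome covers it, and a peak marks a place where many insertions pile up. In plant leaves such places are mostly promoters and other regulatory elements of genes in use, whereas arrays of repeats packed as heterochromatin give few. Chromosome arms hold most genes, and centromeres consist mainly of repeats. The authors removed reads that map to several places, so closed chromatin and sequence in which few reads can be placed uniquely cannot be told apart in the peak lists.

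The windows were spread over the assembly but not evenly. Scaffold 4 held the most, 7 of its 47 windows, followed by scaffold 5 with 6 of 44 and scaffold 11 with 3 of 31. On scaffold 17, whose centromere takes up most of its length, both of its 2 arm windows were peak-poor. Scaffolds 10, 14, 15, 19, 21 and 22 had none. On the scaffolds with a listed centromere 20 of 224 windows were peak-poor (8.93%), and on those without one 13 of 348 (3.74%). Windows are neighbours on a single assembly, so these shares are descriptions without a test.

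**Figure D1:**
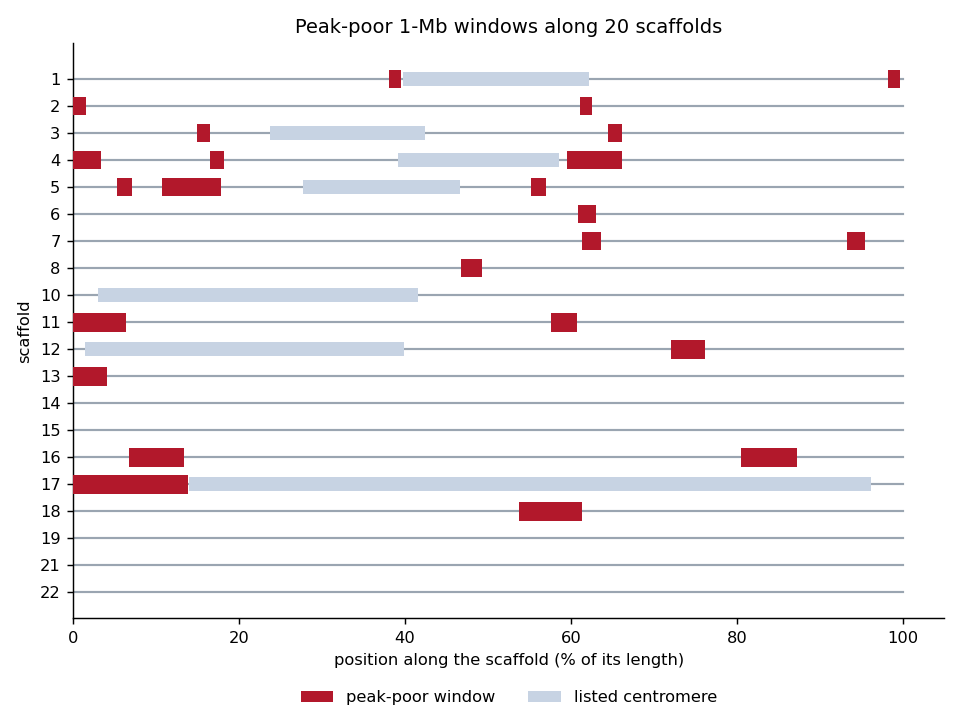
Each grey line is a scaffold drawn to the same width, with position as % of its length on the x axis and the scaffold number on the y axis. Red blocks are the 33 peak-poor windows and pale blue blocks the listed centromeres; red blocks join into runs on scaffolds 4, 5, 11 and 17, and 5 of the 6 end windows sit at the left.

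Peak-poor windows lay at scaffold ends, beside centromeres and in the interior, with larger shares of the end and border windows than of the interior ones. Of 37 windows that reach into the first or last 1 Mb of a scaffold, 6 were peak-poor (16.2%), with a median of 31.25 summits. They were the first windows of scaffolds 2, 4, 11, 13 and 17 and the last full window of scaffold 1. By side, 5 of 18 first windows and 1 of 19 last windows were peak-poor. The sides are not alike, because a first window starts at the scaffold end and a last full window stops short of it, leaving a remnant of less than 1 Mb. Of 21 such remnants, 6 held 35 or fewer summits per Mb. Of 22 windows less than 2 Mb from a centromere edge, 5 were peak-poor (22.7%), on scaffolds 1, 4 and 17. The first window of scaffold 17 counts as both an end and a centromere border. In the interior, 23 of 514 windows were peak-poor (4.47%), so most of the 33 lay there. These 23 lay 1 to 24.5 Mb from the nearer scaffold end, and the 13 of them on a scaffold with a listed centromere lay 2.58 to 21.7 Mb from its edge. For end and interior windows on scaffolds without a listed centromere, the distance to a centromere is unknown.

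The share of end windows was 16.2% in replicate 1 alone and 10.8% in replicate 2 alone, and with windows shifted by 500 kb it was 7.89%. Without scaffold 17 the share near centromeres was 15%, and without scaffold 4 it was 16.7%. Of the 7 scaffolds with such windows, 3 had a peak-poor one. The interior share was lower in each of these settings. It was 4.86% in replicate 1 alone, 3.89% in replicate 2 alone and 4.52% with shifted windows. Without scaffold 17 it was 4.47%, and without scaffold 4 it was 4.02%.

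The windows with the fewest summits were of several kinds. The first window of scaffold 13, from 1 to 1000000, had 3 summits in replicate 1 and 4 in replicate 2. On scaffold 4, the window from 38000001 to 39000000 had 9 and 12, and that from 39000001 to 40000000 had 12 and 16. The last full window of scaffold 1, from 67000001 to 68000000, had 20 and 16, and on scaffold 5 the window from 7000001 to 8000000 had 19 and 24. These 5 thus include ends and interior windows, and the libraries differed by at most 5 summits in each.

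Most of the others lay close to the threshold. The 33 windows held 3.5 to 35 summits (median 31.5), and the other 539 arm windows 35.5 to 113 (median 67). Of the 33, 5 stood at exactly 35, on scaffolds 2, 4, 5, 12 and 16, and 19 held 30 or more. Just outside were the window of scaffold 6 from 44000001 to 45000000, with 31 and 40 summits, and that of scaffold 12 from 13000001 to 14000000, with 34 and 37. In 22 of the 33 windows both libraries had 35 or fewer, and in 11 only 1 library did. Replicate 2 held 1.05 times as many summits as replicate 1 in the peak-poor windows, and 1.05 times in the other windows too. The libraries differed by at most 10 summits in a peak-poor window, in the first window of scaffold 2 with 30 and 40.

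**Figure D2:**
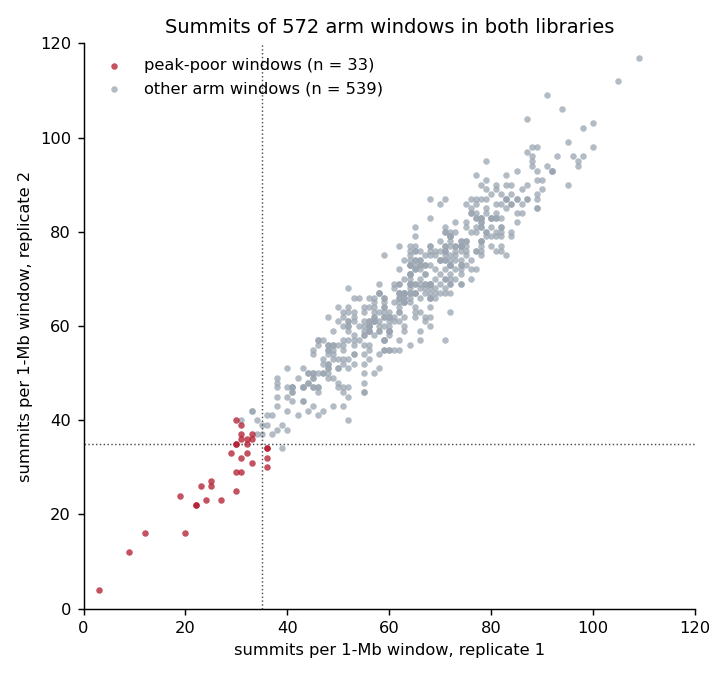
Each point is an arm window, with its summits in replicate 1 on the x axis and in replicate 2 on the y axis; red points are the 33 peak-poor windows, grey points the other 539, and dotted lines mark 35. The red points lie along the diagonal down to the first window of scaffold 13 with 3 and 4 summits, and most crowd near 35 next to the grey ones.

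The windows were also read in a library that took no part in the choice. When windows were chosen by replicate 1 alone, 36 passed, with a median of 30.5 summits there, and in replicate 2 they had a median of 33 (range 4 to 42) against 68 (30 to 117) in the windows not chosen. Of the 36, 22 also had 35 or fewer in replicate 2. When they were chosen by replicate 2 alone, 27 passed, and in replicate 1 they had a median of 30 (range 3 to 39) against 64 (30 to 109) in the others. The ranges of chosen and other windows thus overlapped from 30 to 42 summits in replicate 2 and from 30 to 39 in replicate 1.

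Many of the windows lay in runs. The 33 fell into 24 runs, of which 5 spanned 2 or more windows and held 14 of the 33. A run of 4 windows on scaffold 4, from 36000001 to 40000000, had 81 summits in replicate 1 against 88 in replicate 2, or 20.3 and 22 per Mb. It began 575303 bp from the end of the centromere of scaffold 4 at 35424698. Another run of 4 windows, on scaffold 5 from 6000001 to 10000000, held 109 and 118 summits and lay in the interior, 5.53 Mb from the centromere at its nearest window. Runs of 2 windows opened scaffold 4 (62 and 70 summits), scaffold 11 (65 and 67) and scaffold 17 (55 and 52), each from 1 to 2000000. The last of these fills the whole arm up to 24067 bp from the centromere.

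Counted in steps of 500 kb, the run on scaffold 4 was not uniform. Replicate 1 had 18 and replicate 2 had 27 summits in the step just before the run, on the centromere side. Within the run the steps held 2 to 20 summits in replicate 1 and 5 to 22 in replicate 2, fewest from 38000001 to 38500000 with 2 and 5. The counts stood at 22 and 22 in the step that follows the run and at 28 and 29 in the next. So the lowest stretch lay 2 Mb into the run and not at its border with the centromere. On scaffold 5 the step with the fewest, from 7000001 to 7500000, held 6 and 5 summits, and the step before the run held 29 and 32.

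**Figure D3:**
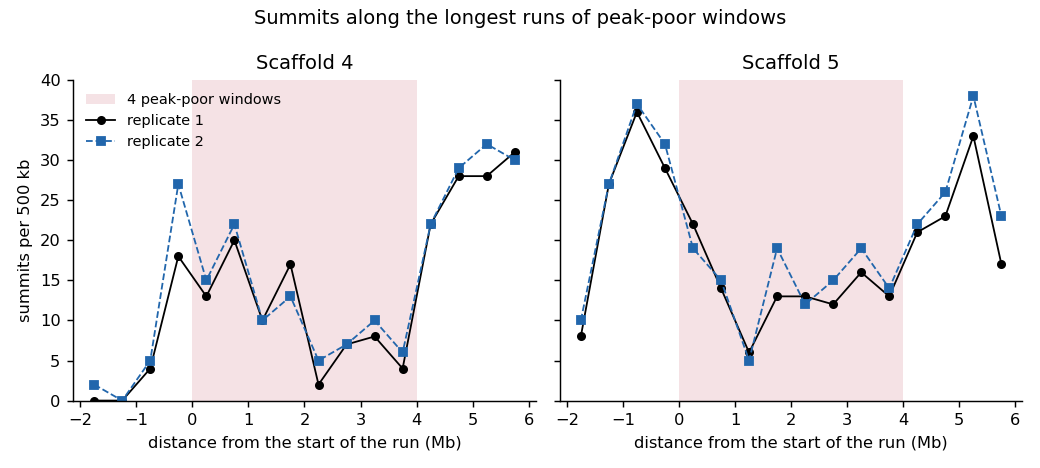
Summits per 500 kb (y axis) against the distance in Mb from the start of the run (x axis) on scaffolds 4 and 5, with replicate 1 as black circles, replicate 2 as blue squares and the 4 peak-poor windows shaded. The lowest step within the shading holds 2 and 5 summits on scaffold 4 and 6 and 5 on scaffold 5; the near-empty points at the left of scaffold 4 lie in or across the edge of its centromere.

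The other 19 windows stood alone. Their 34 neighbouring arm windows held a median of 53.5 summits (range 36 to 93), against 65.25 over all 572 windows. On scaffold 7 the window from 27000001 to 28000000, with 22 summits in each library, followed a window of 93. On scaffold 18 the window from 7000001 to 8000000, with 36 and 30, lay between windows of 72 and 73.5. The neighbours of a lone window exceed 35 summits by definition, and their median was still below that of all windows.

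Long stretches without any peak took up much of the length. A stretch was counted as peak-free where neither library had a peak, and as long from 100 kb. Such stretches covered 36.5% of the length of the peak-poor windows and 5.53% of that of the other arm windows, which follows in part from the choice of the windows. A long stretch was present in 32 of 33 peak-poor windows, against 207 of 539 others. The longest stretch within a window had a median of 168 kb in the peak-poor windows and 83.1 kb in the others. Of 304 long stretches on these arms, 77 touched a peak-poor window (25.3%), and of 25 stretches of 200 kb or more, 12 did (48.0%), where 5.77% of the windows were peak-poor.

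The 5 longest stretches in peak-poor windows had different surroundings. On scaffold 13 from 11148 to 904598, 893 kb had no peak, next to the scaffold's start. On scaffold 5 a stretch of 659 kb ran from 3706228 to 4365531, of which 294 kb lay inside the peak-poor window and the rest in the next one, which held 36 summits. It was followed by 308 kb on scaffold 3 from 9474472 to 9782249 and 290 kb on scaffold 5 from 7133936 to 7423923, both in the interior. The last of the 5, 253 kb on scaffold 4 from 35963636 to 36216179, crossed into the start of the run beside the centromere.

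Long stretches took up 98.6% of the near-empty first window of scaffold 13. Behind the longest, 3 peaks of each library sat together between 904599 and 907044, and all 3 of replicate 1 overlapped peaks of replicate 2. The middle one was the strongest, with a fold enrichment of 9.19 in replicate 1 and 10.6 in replicate 2. Replicate 2 had a further peak from 10904 to 11147, with 15 fragments at its summit. Without this window, the long stretches covered 34.6% of the length of the peak-poor windows.

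Some windows held long empty stretches between denser parts and others were thin throughout, and many lay between these. In 7 windows long stretches took up at least 50% of the length: on scaffold 1 from 67000001, scaffold 3 from 9000001, scaffold 4 from 10000001, 37000001, 38000001 and 39000001, and scaffold 13 from 1. On scaffold 4 from 10000001, 63.6% of the window was in such stretches, and the remainder held 81.1 summits per Mb, above the median of 70.1 for the same measure in the other arm windows. In 14 windows they took up less than 25%. On scaffold 5 from 31000001 to 32000000, with 23 and 26 summits, they took 11.6%, and the remainder held 27.7 summits per Mb. On scaffold 11 from 18000001 to 19000000, with 31 and 36 summits, no stretch reached 100 kb and the longest was 98.3 kb. Pooled over all 33, the sequence outside the long stretches held 44.3 summits per Mb, against 70.3 in the other windows, a gap that the choice of windows by their summits brings about in part.

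Summits that remained still came close together. The median distance to the next summit was 14.1 kb in replicate 1 and 14.4 kb in replicate 2 in the peak-poor windows, against 8.76 and 8.36 kb in the other arm windows. The mean distance was 33.2 and 33.1 kb, against 15.0 and 14.3 kb, and thus further from the median. Distances under 2 kb made up 14.0% and 13.1% in the peak-poor windows, against 16.2% and 17.3% in the others. Those of 50 kb or more made up 19.8% and 20.2%, against 5.06% and 4.48%. The shares of short distances thus differed by less than those of long ones. Longer distances in the peak-poor windows follow in part from the choice of windows with few summits.

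Summits were also counted in parts of 100 kb. Their mean per part was 2.74 and 2.88 in the peak-poor windows, against 6.47 and 6.80 in the others. More empty parts and a lower fullest part follow in part from this lower count, by which the windows were chosen. Of 330 parts of the peak-poor windows, 71 had no summit in replicate 1 and 60 had none in replicate 2 (21.5% and 18.2%), against 2.04% and 1.80% in the other arm windows. The fullest part of a peak-poor window held a median of 7 summits in each library, against 12 in each library in the other windows. The variance of the counts per part was 2.18 and 2.13 times their mean in the peak-poor windows, against 1.74 and 1.73 times in the others. Each value pools windows with unlike counts, so it includes differences between windows.

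**Figure D4:**
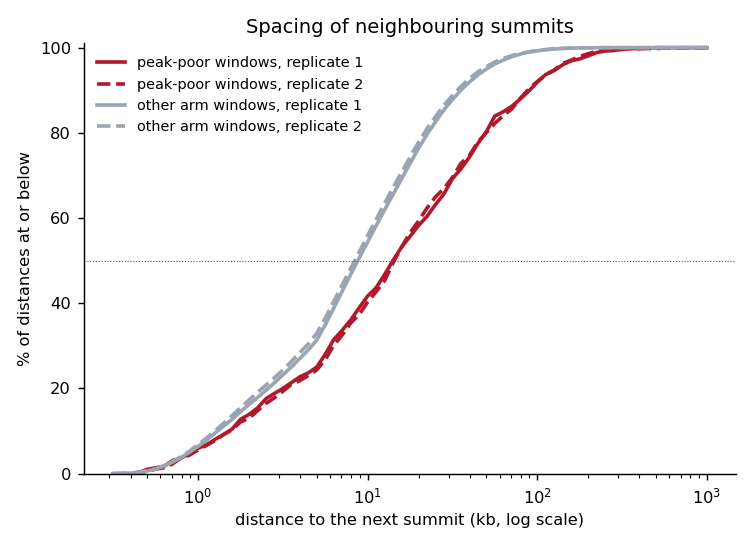
The y axis gives the % of distances between neighbouring summits of a library that are at or below the distance on the x axis (kb, log scale), for the peak-poor windows in red and the other arm windows in grey, replicate 1 solid and replicate 2 dashed. The curves run close together below 2 kb and part above it, crossing 50% (dotted) at 14.1 and 14.4 kb in the peak-poor windows and at 8.76 and 8.36 kb in the others. The windows were chosen for few summits, which in part brings about the longer distances.

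Width, fold, fragments and background were not themselves used to choose the windows, but background is not independent of that choice. It includes the reads of neighbouring peaks, so a lower background can follow in part from choosing windows with few summits. Over all 572 arm windows, summits and median background had a Spearman correlation of 0.51 in replicate 1 and 0.50 in replicate 2. The peaks of the peak-poor windows had fewer reads around them in both libraries. MACS gives each peak a background, the fragments expected from the surrounding sequence, which cannot be lower than a genome-wide value of 3.38 fragments in replicate 1 and 3.18 in replicate 2. The background had a median of 3.73 and 3.65 fragments in the peak-poor windows, against 5.90 and 5.61 in the other arm windows, a difference of -2.07 ± 0.151 (SD, n = 2 libraries). It was lower in the peak-poor windows on 12 of the 13 scaffolds that have both kinds. At the genome-wide value itself stood 43.9% and 39.9% of the peaks in the peak-poor windows, against 12.9% and 12.5% in the others, a difference of 29.2 ± 2.49 percentage points. For each measure in which both libraries moved the same way, an exact permutation of the signs of the 2 libraries' differences (two-sided) gave p = 0.5, the smallest that 2 libraries allow, so none could pass 0.05.

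MACS takes the background from the reads around a peak, neighbouring peaks included. The share at the genome-wide value is therefore also given by the distance to the nearest summit. Among peaks with a neighbour within 5 kb, 24.7% and 16.8% stood at the genome-wide background in the peak-poor windows, against 5.09% and 4.16% in the other arm windows. With the nearest at 5 to 20 kb it was 47.0% and 48.7% against 19.9% and 20.6%. With none within 20 kb it was 76.6% and 72.0% in the peak-poor windows, against 34.0% and 37.9% in the others. These groups of distance were chosen after the data were seen. They match the nearest summit alone and not the number of peaks nearby, whose part in the background was not tested.

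The median peak was also narrower and carried fewer fragments in both libraries. The median width was 330.5 and 335 bp in the peak-poor windows, against 371 and 367 bp in the other arm windows, a difference of -36.3 ± 6.01 bp that was negative on 10 of 13 scaffolds. Peaks of 1 kb or more made up 2.54% and 2.53% (23 and 24 peaks), against 2.63% and 2.63%. This share was lower in the peak-poor windows on 9 of 13 scaffolds and higher on 4. It differed by position, on few wide peaks. In the interior it was 2.02% and 2.06%, and in end windows off the borders 1.74% and 1.53%. In border windows off the ends it was 4.39% and 3.70%. In the first window of scaffold 17 it was 9.68% and 13.8%, from 3 and 4 peaks. A median of 25 and 27 fragments was stacked at the summits in the peak-poor windows, against 33 and 33 in the others, a difference of -7.00 ± 1.41. Fragments and background were solved together from fold and -log10 p, so this difference is not independent of that in background. Peaks covered 1.1% and 1.2% of the peak-poor length, against 2.8% and 2.9% of the other arm length. The lower coverage follows in large part from the choice of windows with few summits.

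Fold enrichment, the fragments at a summit over their background with 1 added to each, did not differ beyond the spread between libraries. Its median was 4.84 and 5.49 in the peak-poor windows, against 4.78 and 5.03 in the others, a difference of 0.259 ± 0.277. This difference was positive in both libraries, at 0.063 and 0.455. It was positive on 9 of 13 scaffolds and negative on 4. Among peaks without a neighbour within 20 kb the difference was -0.11. For a peak at the genome-wide background, the fold is not a ratio to the reads nearby. The share of peaks that overlapped a peak of the other library was 78.3% in replicate 1 and 74.3% in replicate 2, against 82.4% and 78.4% in the other windows, a difference of -4.07 ± 0.0152 percentage points. Overlap is reciprocal, so both libraries count nearly the same pairs of peaks. The overlapping peaks numbered 708 and 705 in the peak-poor windows and 28732 and 28736 in the others. The SD of 0.0152 is therefore not a spread between independent replicates. The difference in overlap was negative on 10 of 13 scaffolds.

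**Figure D5:**
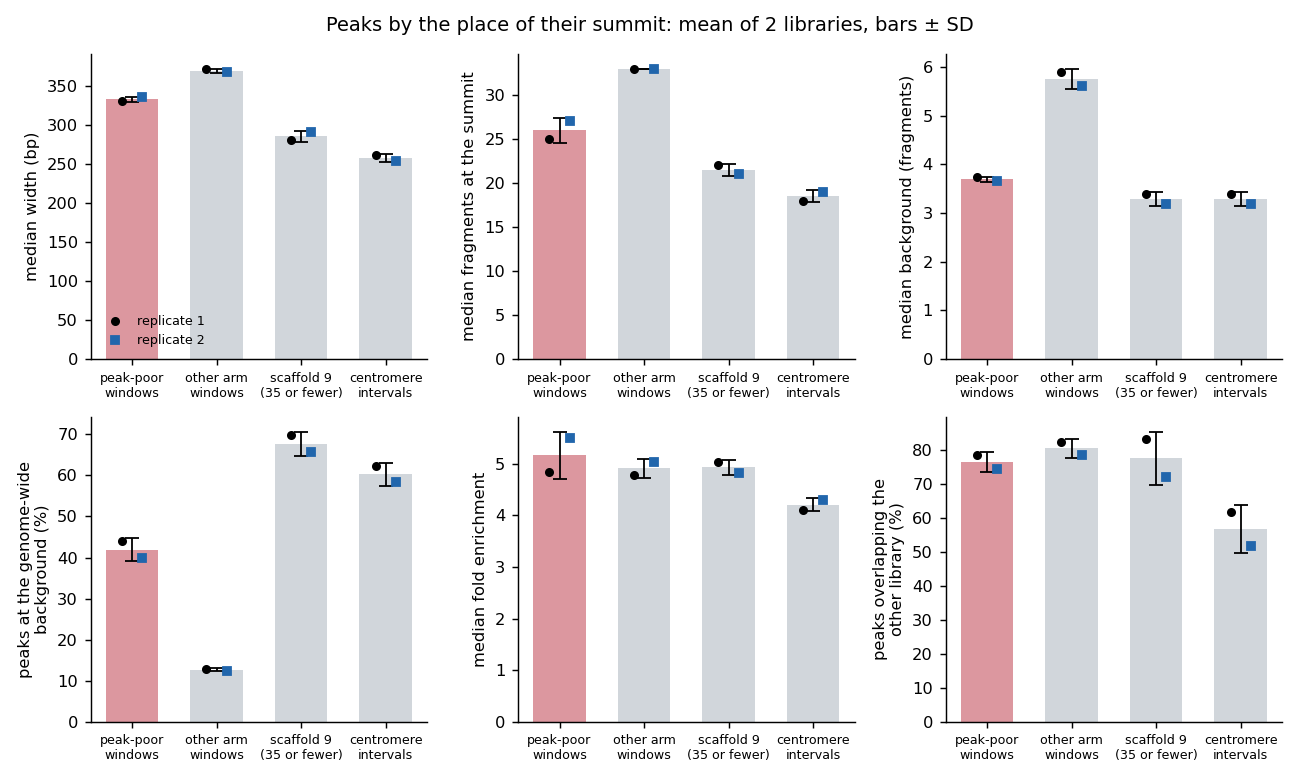
The 6 panels give, by the place of the summit on the x axis, the median width (bp), the median fragments at the summit, the median background (fragments), the % of peaks at the genome-wide background, the median fold enrichment and the % overlapping a peak of the other library; bars are the mean of 2 libraries with the SD, circles replicate 1 and squares replicate 2. Peaks of the peak-poor windows (red) lie between those of the other arm windows and those of the centromeres in width, fragments, background, % at the genome-wide background and % overlapping, but not in fold enrichment.

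Set beside both places with still fewer peaks, the peak-poor windows were intermediate in width, fragments, background and the share at the genome-wide background. In the 16 windows of scaffold 9 with 35 or fewer summits, which are outside the choice, 69.8% and 65.6% of 106 and 125 peaks stood at the genome-wide background, and the median width was 280 and 290 bp. In the 8 centromere intervals it was 62.2% and 58.3% of 201 and 240 peaks, with a median width of 261 and 254 bp and 18 and 19 fragments at the summit. The overlap with the other library was 61.7% and 51.7% in the centromeres and 83.0% and 72.0% in the scaffold 9 windows. In both libraries the peak-poor windows lay between the centromeres and the other arms in overlap, nearer to the other arms.

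The windows varied among themselves in background. In 9 of the 33 the median background stood at the genome-wide value in both libraries (27.3%), against 3 of 539 other windows (0.557%). These 9 held a median of 24.5 summits, and the other 24 held 32.5. At the other end, the background was 9.56 and 10.4 fragments in the first window of scaffold 13, where 3 or 4 peaks carry the median. It was 7.52 and 7.10 on scaffold 5 from 3000001 and 6.77 and 6.35 on scaffold 3 from 9000001, above the medians of the other arm windows in both libraries. These 3 hold the longest peak-free stretches of the 33, and their median peak had a higher background than that of the other arm windows. On scaffold 13 the high values belong to the 3 peaks of each library that sat together, whose backgrounds can include each other's reads. The further peak of replicate 2 there, from 10904 to 11147, stood at the genome-wide value of 3.18 fragments. On scaffold 4 from 38000001 to 40000000, in contrast, long stretches made up 84.5% and 67.6% of the 2 windows, and the median background was at the genome-wide value in both libraries. Over the 33 windows, the mean background of both libraries and the share of length in long stretches had a Spearman correlation of 0.24, and over all 572 arm windows it was -0.20. Both are descriptions of windows from the same 2 libraries, and no direction is read from them.

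By position, the pooled peaks of the 5 end windows not within 2 Mb of a listed centromere had the highest background. Its median was 4.05 and 3.97 fragments, and 29.6% and 31.3% of the peaks stood at the genome-wide value. The 5 windows were not alike. By window, the median was 3.38 and 3.24 on scaffold 1, 3.71 and 3.36 on scaffold 11 and 4.025 and 3.971 on scaffold 4. It was 5.29 and 4.605 on scaffold 2 and 9.56 and 10.4 on scaffold 13. On scaffold 1, 55% and 50% of the peaks stood at the genome-wide value. Scaffolds 2, 11 and 13, which hold some of these windows, have no listed centromere, so the distance to one is unknown there. In the interior the median was 3.65 and 3.59 fragments, and 45.3% and 42.0% stood at the genome-wide value. The 4 windows that border a centromere without being at an end had a median of 3.69 and 3.85 fragments, and 66.7% and 70.4% of their peaks overlapped a peak of the other library, against 80.1% and 75.6% in the interior. These windows differed. The share was 69.7% and 62.2% on scaffold 4 from 36000001 and 55.6% and 65.2% from 37000001. It was 73.3% and 84% on scaffold 1 and 66.7% and 73.9% on scaffold 17. The overlap share was 77.4% and 68.7% in the 5 end windows, and 87.1% and 82.8% in the first window of scaffold 17, which is both an end and a border.

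Single strong peaks occurred in these windows. The peak on scaffold 16 from 12607200 to 12607753 was 18.2-fold enriched in replicate 1, with 189 fragments at the summit, and 20-fold in replicate 2, with 261. On scaffold 5 from 9121305 to 9121896, inside the run of 4 windows, a peak reached 17.9-fold in replicate 1 and 18.0-fold in replicate 2. On scaffold 18 a peak from 7175867 to 7176417 reached 15.8-fold in replicate 1 and 19.5-fold in replicate 2. The largest fold among these was on scaffold 17, from 190853 to 191594, with 25.1-fold in replicate 2 and 14.8-fold in replicate 1. The first of these had a background of 9.45 fragments in replicate 1, and the last stood at the genome-wide value in replicate 2. What lies at these positions was not analysed here.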

How the data were processed

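ATAC-seq reads of 2 leaf libraries (replicates 1 and 2, 1 group) were trimmed with fastp 0.20.0, aligned with BWA-MEM 0.7.17, filtered with SAMtools 1.16.1 (-q 30) for duplicates and multi-mapping, and called per library with MACS 3.0.0 (q 0.01) by the authors. The deposited fold enrichment is a ratio at the summit to the modelled background; the deposited values also include -log10 p and -log10 q, and a deposited score of 10 times the -log10 q that was not used. Read numbers are not in the peak lists, so depth is known only from the fragments, solved with the background from fold and -log10 p, which gave whole fragments for 100% of peaks (relative tolerance 0.0001). The sources used here do not give the effective genome size or any shift. Positions count from 1 on the scaffolds of the authors' own assembly. Scaffold lengths and centromere intervals came from the study's supplementary material.

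A peak was counted at its summit, overlap meant at least 1 bp, and the genome-wide background was taken within 0.01 fragments. Measures were computed per library, with the SD between the 2. The test was exact, permuting the signs of the libraries' differences (two-sided). Scaffold counts are descriptions. The members and lists were chosen with earlier results of these data known. Regions were named by rule: runs of 2 or more windows, the 5 windows with fewest summits, the 5 longest peak-free stretches, windows at the threshold, the 3 scaffolds with most windows, and the 3 strongest shared peaks per library; other windows named as examples were picked after their values were seen. Window counting, gap finding and the solving of fragments were tested on simulated data. Alternatives were each library alone, shifted windows, midpoints, thresholds of 30 and 40, stricter or shared peaks, other limits for borders and stretches, and leaving out a scaffold. The tools were pandas 2.3.3, numpy 2.4.6, matplotlib 3.10.9, scipy 1.17.1 and Python 3.11.15.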

Additional observations from a re-analysis of the deposited data

How the results depend on the processing

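The number of peak-poor windows was 27 to 36 in single libraries and 30 and 33 with shifted windows and midpoints. It was 15 at 30 summits or fewer and 48 at 40. With only peaks of -log10 q of at least 5 or only shared peaks it was 32 each, with the threshold lowered in proportion to the median window, to 29.1 and 27.9 summits. The share of end windows was 10.8% to 16.2% in single libraries, 7.89% with windows shifted by 500 kb and 8.11% at 30 summits. The share near centromeres was 18.2% to 27.3% in single libraries. In settings added after the data were seen, it was 15% without scaffold 17 and 16.7% without scaffold 4. The interior share was 3.89% to 4.86% in single libraries, 1.75% at 30 summits and 7.20% at 40. Long peak-free stretches covered 42.3% to 44.9% of the peak-poor length in single libraries, 61.2% with a minimum of 50 kb, 10.5% with 200 kb, 49.9% at 30 summits, 33.5% at 40 and 34.6% without the window of scaffold 13, which was also added later. Over the 6 differences between peaks, the sign was kept in every alternative run but 1. Among peaks 20 kb or more from the nearest summit, a setting added later, the difference in fold reversed to -0.11, while the other 4 differences run there kept theirs. The background difference was -2.38 to -0.64 over its alternatives, that in width -73.8 to -26.0 bp, that in fragments -8.50 to -4.25, that in the share at the genome-wide background 24.9 to 38.3 percentage points and that in overlap -6.77 to -1.57. No paired analysis was possible because there is only 1 group to pair; the differences between windows were taken within each library. With 2 libraries of unknown depth, only peaks of 11 or more fragments are seen, and the causes of these shifts were not tested.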

Other observations

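Remnants of less than 1 Mb at the scaffold ends are outside the window rule. The 21 remnants held a median of 49.6 summits per Mb. The remnant of scaffold 1 from 68000001 to 68265395, which follows its peak-poor last window, held 4 summits in replicate 1 and 7 in replicate 2. The remnant of scaffold 17 from 14000001 to 14449349, on the other side of its centromere, held 8 and 11.

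Long peak-free stretches also lay in arm windows that were not peak-poor. On scaffold 8, 431 kb from 34743043 to 35174160 had no peak in either library, and on scaffold 19, a scaffold without a peak-poor window, 349 kb from 7780742 to 8130130 and 270.2 kb from 3455527 to 3725759 had none. The stretch of scaffold 8 and the longer one of scaffold 19 each cross a border between windows.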
